A study of Mus musculus with 6 samples.

Results

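Chromatin accessibility was examined at 44 genes that encode regulators of DNA methylation, histone modification and nucleosome remodelling, in mouse fetal liver cells carrying the leukaemic fusion MLL-ENL. A region was counted as belonging to one of these genes when it overlapped the annotated gene body or the 25 kb on either side. Of the 10016 regions listed as differing between the genotypes, 48 met this rule, and they lay at 23 of the 44 genes (52.3%, against 34.9% of all protein-coding genes under the same rule). The cells came from mice with conditional Cebpa and Cebpb alleles, were transformed with an MLL-ENL retrovirus and grew in interleukin 3. WT cells kept both genes, whose products, C/EBPα and C/EBPβ, are transcription factors of myeloid cells. The dKO cells were clones that survived deletion of both genes by TAT-Cre, a recombinase that enters cells, and they expressed GFP. The paper reports that all recovered dKO clones strongly expressed a related factor, C/EBPε. A further group, dKO-LAP*, carried the same deletions and expressed GFP with rat C/EBPβ isoform LAP*, and it was not analysed here. Each of the 3 groups had 2 libraries, so the values rest on 4 of the 6 samples. The paper describes the transformed lines before deletion as also grown from single colonies. The WT labels name no vector and the dKO lines were clones, so the effects of genotype, vector and clone cannot be told apart.

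ATAC-seq uses the Tn5 transposase to cut and tag open DNA, and the reads over a region measure how accessible it is. Each listed region carried 1 log2 mean of normalised reads for WT and 1 for dKO. The change used throughout is the dKO value minus the WT value on this log2 scale, so that 1 is a 2-fold difference. All listed regions had passed a corrected P-value of 0.05 before the table was deposited. No value per library was listed and the depth of each library is unknown, so no replicate error could be given and no test was run. A counting error was approximated from the normalised reads of the group means, with the lowest listed value assumed to be 1 read per library. This error covers sampling of reads only. It ranged from 0.077 to 0.537 in the regions above a floor of 3 reads per library, with a median of 0.187, and every change was at least 4.68 times its counting error. The deletions were visible at the targeted genes. The region over Cebpa held 9.99 in WT and −0.15, the lowest value in the table, in dKO, and the 2 regions over Cebpb held 8.60 and 7.38 in WT and 3.37 and −0.15 in dKO. The cell type itself was not checked, because the regulators are expressed in many cell types.

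The genes fall into groups that write, read or remove marks on chromatin. DNA methyltransferases add methyl groups to cytosine and TET enzymes oxidise them. Polycomb complexes place repressive marks on histones, whereas the KMT2 family, to which MLL itself belongs, methylates histone H3 at active promoters and enhancers. Histone acetyltransferases and deacetylases act in opposition, and remodellers such as the BAF complex use ATP to move nucleosomes. Several of these genes, among them Tet2, Dnmt3a, Asxl1, Ezh2 and Kdm6a, are recurrently mutated in human myeloid leukaemia.

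Accessibility was higher in dKO at 37 of the 48 regions and lower at 11. The higher share was 77.1% (95% Wilson interval 63.5% to 86.7%, counting error only), compared with 60.3% of all listed regions. The Wilson interval treats regions as independent, which neighbouring regions are not. The median change was 1.09 at these genes and 0.98 over all listed regions. Because the whole list leans towards dKO, the changes were also centred on the median of all listed regions. After centring, 26 regions were higher, 21 lower and 1 at zero, a higher share of 54.2% against 50% of all listed regions. A region with a change between 0 and 0.98 therefore has opposite directions on the listed and the centred scale. The median was taken over regions listed as differing, most of them higher, so it is not a neutral zero. The 50% of the list follows from centring on its own median.

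**Figure D1:**
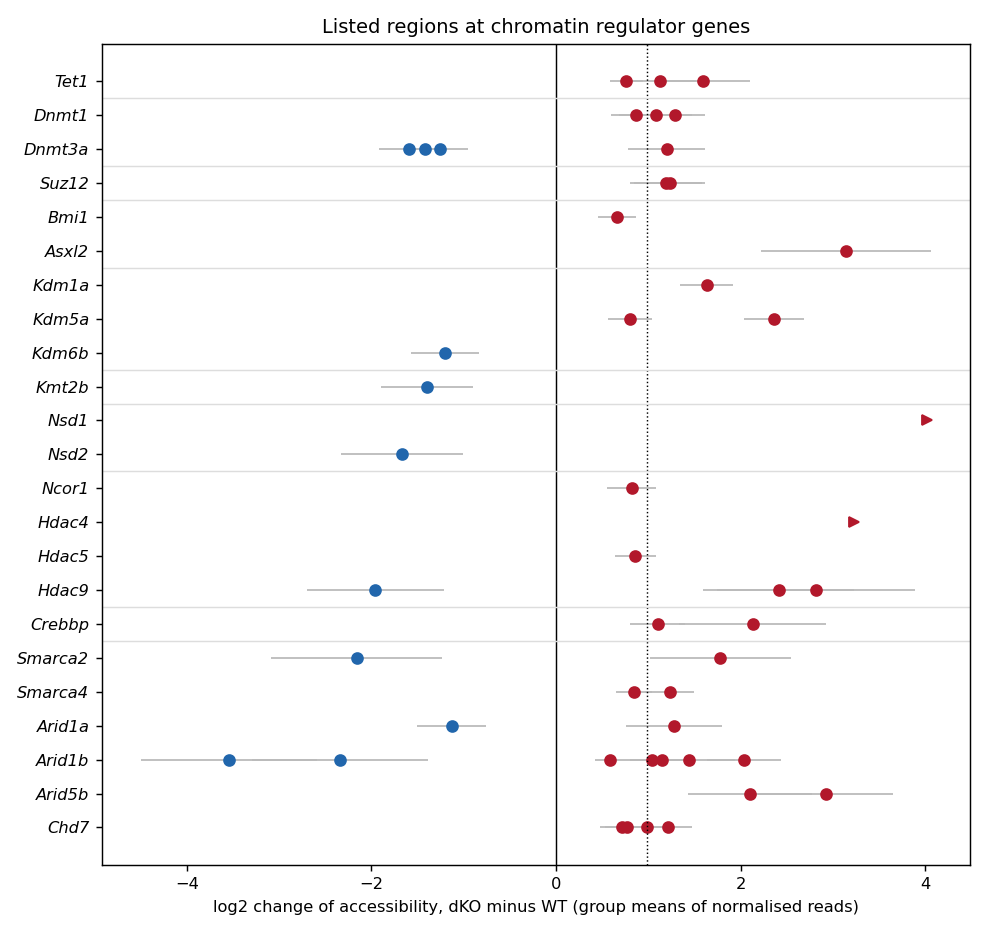
The log2 change of accessibility (dKO minus WT, x axis) of each of the 48 listed regions is shown by gene, with grey lines between groups of genes by role. Red marks are higher and blue marks lower in dKO, horizontal bars are 2 counting errors either way, triangles are lower bounds where WT was at or below the floor, and the dotted line is the median of all listed regions (0.98). The 11 blue marks stand at 8 genes, and 5 of these genes also carry red marks.

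Of the 23 genes, 15 had only higher regions. Only lower regions were listed at Kdm6b, Kmt2b and Nsd2. Both directions occurred at Dnmt3a, Hdac9, Smarca2, Arid1a and Arid1b. A single region was listed at 10 genes. No region was listed at the other 21 genes, which were Tet2, Tet3, Dnmt3b, Ezh1, Ezh2, Eed, Jarid2, Kdm2b, Cbx7, Asxl1, Kdm4a, Kdm4c, Kdm5b, Kdm6a, Kmt2c, Kmt2d, Kmt2e, Setd2, Hdac1, Hdac7 and Ep300. Their absence says only that no region there passed the threshold of the list.

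The regulators are long genes, with a median body of 78.9 kb against 17.4 kb for all protein-coding genes. Per megabase of window, 6.68 regions were listed at the regulators and 5.23 at all protein-coding genes. Among a second list of 105 chromatin genes, chosen by role, 55 had a region, or 52.4%, with 8.25 regions per megabase. Of their 88 regions, 53 were higher in dKO, or 60.2% (Wilson interval 49.8% to 69.8%), and the median change was 0.80. The Wilson intervals of the 2 lists overlapped. The lists share 2 regions, the one between Carm1 and Smarca4 and the one between Chd3 and Kdm6b. Without these, 52 of the 86 regions of the second list were higher, or 60.5%. In that list 31 genes had only higher regions, 18 only lower, 6 both and 50 none.

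**Figure D2:**
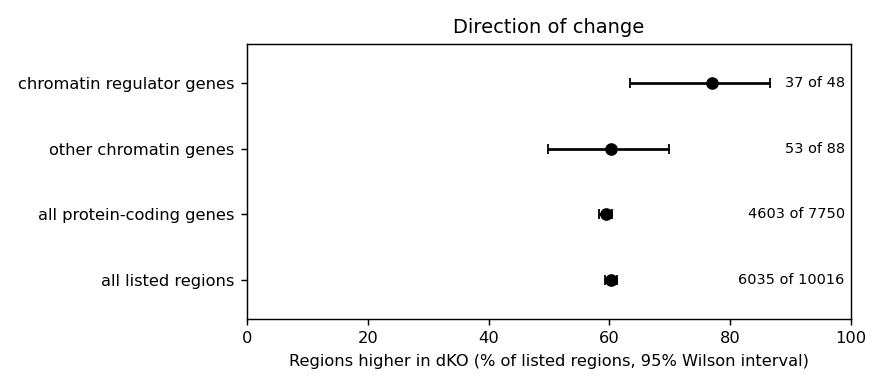
Points give the percentage of listed regions that were higher in dKO, with 95% Wilson intervals as bars and the counts at the right. The 48 regions at the 44 regulators lie at 77.1%, and the other chromatin genes, all protein-coding genes and the whole list lie between 59.4% and 60.3%.

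The sizes of the changes differed by direction. The 37 higher regions had a median change of 1.21 and ranged from 0.58 to 4.12, the largest with WT under the floor, and 26 of them were at least 2-fold higher. The 11 lower regions had a median of −1.59, ranged from −3.54 to −1.13, and were all at least 2-fold lower. In all, 37 of the 48 regions differed at least 2-fold, against 85.5% of all listed regions. Over the whole list the median was 1.58 for higher and −1.85 for lower regions, and 82.4% and 90.3% of these were at least 2-fold. The median level over both groups was 5.98 on the log2 scale at these genes and 5.48 over the whole list.

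**Figure D3:**
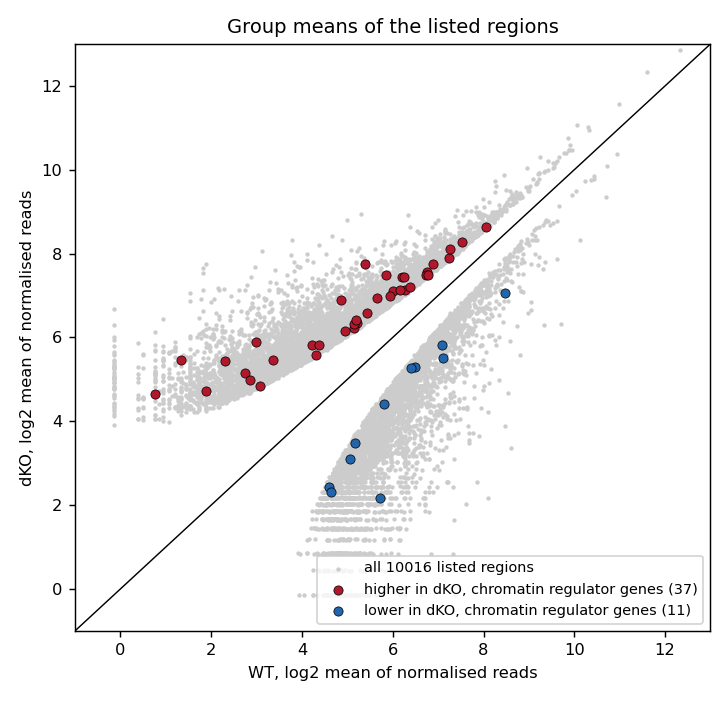
The log2 mean of normalised reads in WT (x axis) is plotted against that in dKO (y axis) for all 10016 listed regions in grey, with the 48 regions at the regulators in red (37 higher in dKO) and blue (11 lower). The line marks equal values, and the empty band along it holds the regions that did not pass the threshold of the list.

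Most of the regions lay away from the promoters of the regulators. Of the 48, 27 were inside a gene body, 20 of these in introns, and 21 lay outside it. For 28 regions the nearest protein-coding start site was that of the regulator, and for 20 it was that of another gene. A further gene's body was overlapped by 8 regions. Over the whole list, 14.9% of regions lay within 1 kb of a protein-coding start site, and 55.7% of those were higher in dKO. Counted in the same way, 10 of the 48 regions (20.8%) did so, 7 of them higher, including those at the starts of Slc25a16, S1pr2 and Spag6. Of the 10, 7 regions lay within 1 kb of an annotated start site of the same gene, 4 higher at Tet1, Crebbp and Chd7 and 3 lower at Dnmt3a. After centring 2 of these 4 stayed higher, and 2 of the 4 were at least 2-fold higher. All 7 were at internal or alternative start sites, and the models at the Crebbp region and at the second Chd7 region have incomplete 5′ ends, so those may not be true starts. None of the 44 genes had a listed region within 1 kb of its outermost 5′ start site, compared with 4.27% of protein-coding genes. A share of that size amounts to few of 44 genes. The first Chd7 region, centred 1453 bp into the gene, fell just outside this distance. It lies 117 bp from the start of Chd7-202, a model that encodes 2986 residues and whose 5′ end is not marked incomplete.

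Sequence was searched on both strands of the central 200 bp of each region for 4 short motifs. C/EBP was taken as TTGCNNAA or TTACNNAA, AP-1 as TGAGTCA, PU.1 as GAGGAAGT and RUNX as AACCACA. AP-1 is the binding site of FOS and JUN dimers, PU.1 is a myeloid master regulator and RUNX factors act in blood stem cells. A match is a description of the letters and does not show that a factor bound there. In the sequences printed here, all from mm10, capitals mark these motifs in either orientation.

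Dnmt3a encodes a de novo DNA methyltransferase and carried the only group of adjacent regions with lower accessibility. They lay at an internal start site, in a span of 1918 bp with gaps of 101 and 95 bp. The first, chr12:3891121-3891790, held 8.47 in WT and 7.05 in dKO, a change of −1.42 ± 0.099 (counting error), or 2.68-fold lower. The second, chr12:3891892-3892562, held 7.11 and 5.52, a change of −1.59 ± 0.165. The third, chr12:3892658-3893038, held 7.09 and 5.83, a change of −1.26 ± 0.153. The first is the most accessible of the 11 lower regions, with a mean level above that of 95.9% of the list. The 3 regions may be parts of 1 open domain and are not independent observations.

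The first of these regions contains the start sites of Dnmt3a-205, at position 3891728, and Dnmt3a-203, at 3891744. Both transcripts encode 689 residues. The long transcript Dnmt3a-201 encodes 908 residues and starts 84714 bp upstream of Dnmt3a-203. No region was listed at that long start site. A region 7077 bp before it, chr12:3799579-3799953, went the other way, with 4.95 in WT and 6.15 in dKO, a change of 1.20 ± 0.209. Hence 3 regions at the internal start site were lower in dKO and 1 region upstream of the gene was higher. None of the 4 held any of the motifs in its central 200 bp. Outside the centre of the first region, a pair of C/EBP strings ended 506 and 491 bp before the start of Dnmt3a-205. The stretch that holds them is given first, and then a stretch of the second region, which had the largest change and none of the motifs.

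Dnmt3a internal promoter, lower in dKO (chr12:3891215-3891354, + strand): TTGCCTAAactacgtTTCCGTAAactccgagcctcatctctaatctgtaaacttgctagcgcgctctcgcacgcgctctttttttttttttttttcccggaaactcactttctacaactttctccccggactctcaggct

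Dnmt3a intron next to it, lower in dKO (chr12:3892157-3892296, + strand): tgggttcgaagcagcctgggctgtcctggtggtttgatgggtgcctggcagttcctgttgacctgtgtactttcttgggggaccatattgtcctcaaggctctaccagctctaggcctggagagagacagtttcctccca

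**Figure D4:**
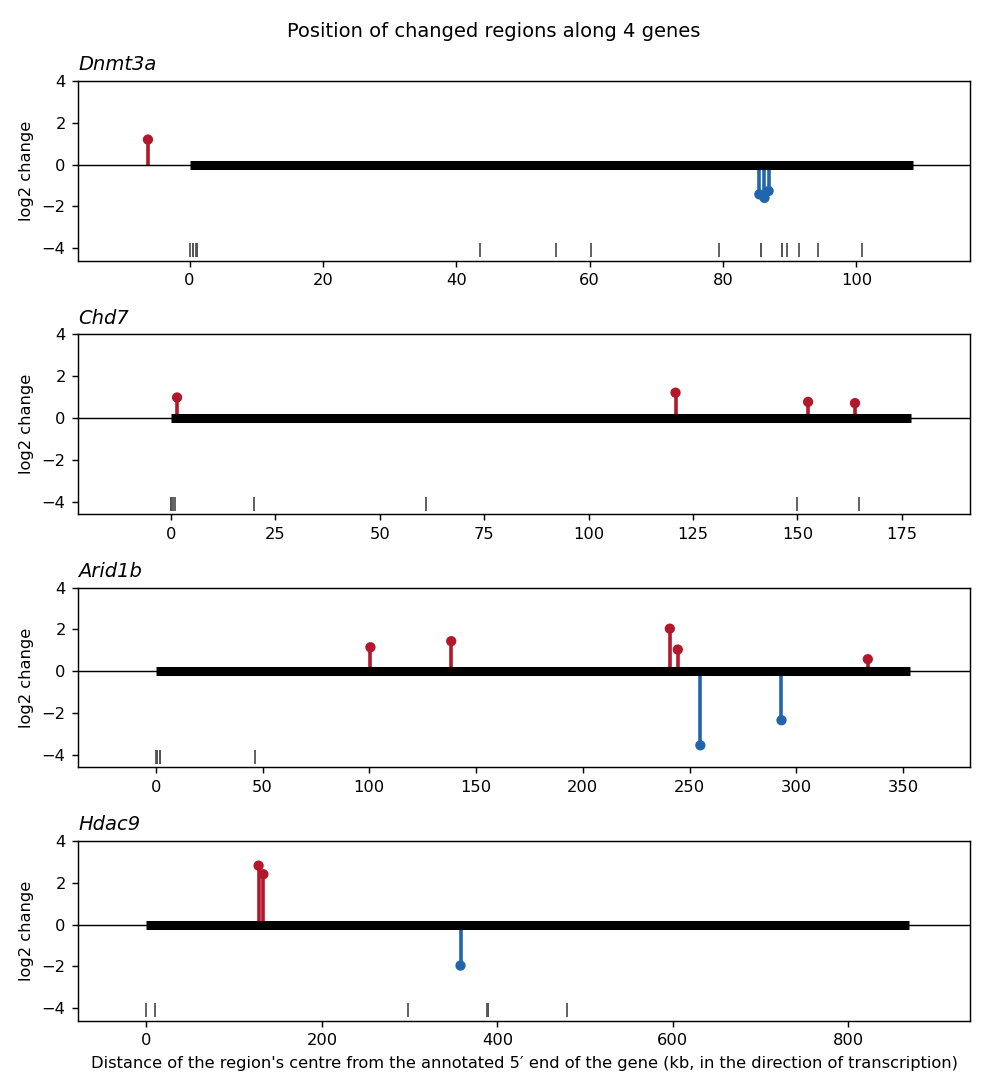
Each panel gives, for Dnmt3a, Chd7, Arid1b and Hdac9, the log2 change (y axis) of every listed region against the distance of its centre from the annotated 5′ end in kb (x axis). The black bar is the gene body, red and blue mark regions higher and lower in dKO, and ticks mark annotated transcript starts. The 3 lower Dnmt3a regions cluster at an internal start site, and the 2 lower Arid1b regions stand between higher ones.

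Dnmt1, which copies methylation onto newly made DNA, had 3 regions upstream, all higher in dKO. The closest, 1671 bp before the start, chr9:20961559-20961901, held 5.15 in WT and 6.23 in dKO (change 1.08 ± 0.197), with an AP-1 string in its centre. The next, chr9:20967150-20967578, held 5.65 and 6.94 (1.29 ± 0.162). The third, chr9:20973640-20974077, held 6.26 and 7.13 (0.87 ± 0.138). The latter 2 overlap S1pr2, a sphingosine phosphate receptor gene, and the third covers one of its start sites. Both lie nearer to a start site of S1pr2 than to that of Dnmt1, and they count here only through the Dnmt1 window.

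Tet1, the only one of the 3 TET genes with a region, had 3 higher regions. One lay in an intron, 900 bp from the start of the short transcript Tet1-207, which encodes 47 residues. This region, chr10:62885890-62886424, held 5.21 in WT and 6.34 in dKO, a change of 1.13 ± 0.192. The other two belong as much to neighbours. The region chr10:62781873-62782425 held 4.23 and 5.82 (1.59 ± 0.258) and lies over Ccar1, and chr10:62920263-62921183 held 7.52 and 8.28 (0.76 ± 0.090) and covers the start of Slc25a16. All 5 regions on chromosome 10, at Tet1 and Arid5b, were higher in dKO, against 32 of the 43 regions on other chromosomes. Over the whole list, 629 of the 767 regions on chromosome 10 were higher, or 82.0%. Without chromosome 10 the higher share was 74.4%, against 58.4% of the rest of the list.

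Of the 5 core or associated genes of Polycomb repressive complex 2, Suz12, a subunit the enzyme needs, was the only one with regions. The one 10479 bp upstream, chr11:79982074-79982627, held 5.14 in WT and 6.33 in dKO (1.19 ± 0.196). The other, chr11:80052245-80052849, held 5.18 and 6.41 (1.23 ± 0.192) and overlaps the next gene, Crlf3. Both were 2.28 to 2.35 times as accessible in dKO. Ezh1, Ezh2, Eed and Jarid2 had none.

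In the group of the Polycomb repressive complex 1 and ASXL genes, the 2 regions were of opposite character. Asxl2, a partner of the BAP1 deubiquitinase, had a weak region 18704 bp beyond its end, chr12:3525556-3525886, at 2.30 in WT and 5.44 in dKO. This was a change of 3.14 ± 0.461, or 8.82-fold, larger than at 91.8% of the higher regions of the list. Bmi1, a core subunit that supports stem cell self-renewal, had a strong region, chr2:18693883-18694814, at 7.24 and 7.90 (0.66 ± 0.101). It covers the start of the neighbouring Spag6, and the change turned to −0.32 after centring.

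Histone demethylases gave 3 higher regions and 1 lower. Kdm1a, which removes methyl groups from histone H3 and is a drug target in leukaemia, had a region over a coding exon, chr4:136569984-136570461. It held 5.86 in WT and 7.49 in dKO, a change of 1.63 ± 0.146. It had the most AP-1 strings of any of the 48 regions, 3 in the central 200 bp, which stand in copies of a local repeat, and the stretch printed holds 2 of these 3.

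Kdm5a, which removes methylation found at active promoters, had 2 regions 223 bp apart beyond its end. The change was 0.80 ± 0.117 at chr6:120452351-120452868, from 6.75 to 7.55, and 2.36 ± 0.164 at chr6:120453092-120453605, from 5.38 to 7.74. In WT these adjacent stretches differed by more than in dKO. The nearest start site to both was that of Il17ra, a cytokine receptor gene.

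Kdm6b, which removes the Polycomb mark, had the lower region, chr11:69379582-69380020, at 6.49 in WT and 5.29 in dKO (−1.20 ± 0.185). It lies 18488 bp beyond the end of Kdm6b and nearest to Chd3, and holds a pair of C/EBP strings in its centre. The Kdm6b stretch is shown because, after a region of Hdac9, its change was the largest among lower regions with a central C/EBP string. The Kdm1a stretch is shown because its change was the largest among higher regions with a central AP-1 string. They also hold the most C/EBP strings among the lower and the most AP-1 strings among the higher regions, counted in the centre.

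Kdm6b downstream, lower in dKO (chr11:69379731-69379870, + strand): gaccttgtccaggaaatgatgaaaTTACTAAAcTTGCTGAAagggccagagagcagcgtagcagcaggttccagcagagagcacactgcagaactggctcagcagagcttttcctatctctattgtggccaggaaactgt

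Kdm1a coding exon region, higher in dKO (chr4:136570042-136570181, + strand): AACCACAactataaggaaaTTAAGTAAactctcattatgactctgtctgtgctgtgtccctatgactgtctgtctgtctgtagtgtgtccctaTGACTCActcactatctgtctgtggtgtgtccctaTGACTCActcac

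Regions were listed at 3 of the 7 histone methyltransferase genes of the KMT2, NSD and SETD2 families. Of the KMT2 genes, only Kmt2b had one, chr7:30607924-30608249, at 5.80 in WT and 4.40 in dKO (−1.40 ± 0.248). It was 19198 bp upstream and inside the uroplakin gene Upk1a. Nsd2, whose product methylates histone H3 in active gene bodies, had a lower intronic region, chr5:33851591-33851878, at 5.16 and 3.49 (−1.67 ± 0.331). Its relative Nsd1 went the other way. The region 7500 bp before the start of Nsd1, chr13:55201797-55202282, held 1.33 in WT and 5.45 in dKO. The WT value was under the floor of 3 reads per library (1.43, with the lowest listed value taken as 1 read). On that scale the region was at least 16.2-fold higher in dKO.

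Among deacetylases and their corepressor the split was 5 higher and 1 lower. Hdac4, Hdac5 and Hdac9 encode class IIa deacetylases, which shuttle between nucleus and cytoplasm. In an intron of Hdac4, chr1:92063986-92064282 held 0.77 in WT and 4.66 in dKO, and with WT under the floor it was at least 9.38-fold higher. Hdac5 had an upstream region, chr11:102244979-102245520, at 6.88 and 7.74 (0.86 ± 0.111), nearest to BC030867. Ncor1, the scaffold of a corepressor complex with HDAC3, had one inside Pigl, chr11:62466524-62467017, at 6.39 and 7.21 (0.82 ± 0.132). The regions at Hdac5 and Ncor1 stood at −0.12 and −0.16 after centring.

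Hdac9 carried 3 intronic regions along the longest of the 44 gene bodies. A pair 5174 bp apart was higher in dKO. Of these, chr12:34783644-34783948 held 2.75 in WT and 5.16 in dKO (2.41 ± 0.407), and chr12:34789123-34789387 held 1.89 and 4.71 (2.82 ± 0.537). The third, 224345 bp away towards the 3′ end, was lower. There chr12:34559027-34559298 held 5.06 and 3.10 (−1.96 ± 0.371). C/EBP strings stood in the centre of the lower region and of one of the higher ones, so matches occurred in both directions. They were of different forms, TTACNNAA in the lower region and TTGCNNAA in the higher. Levels in the less accessible group were low in all 3, and the counting errors are correspondingly wide.

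Crebbp encodes the acetyltransferase CBP, and both of its intronic regions were higher in dKO. The region chr16:4128934-4129240 held 2.85 in WT and 4.98 in dKO (2.13 ± 0.400), 4.38-fold higher. It lies 313 bp before the start of Crebbp-203, a transcript model with an incomplete 5′ end. The other, chr16:4200006-4200393, held 6.00 and 7.10 (1.10 ± 0.147) with an AP-1 string. Ep300, its paralogue, had no listed region. The Crebbp stretch is shown for the largest change among regions within 1 kb of a start site of their gene. The Hdac9 stretches were picked for the largest change in each direction among regions above the floor with a central C/EBP string. All 3 stretches hold C/EBP strings, and the Hdac9 directions follow from this choice.

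Crebbp internal start, higher in dKO (chr16:4129064-4129203, + strand): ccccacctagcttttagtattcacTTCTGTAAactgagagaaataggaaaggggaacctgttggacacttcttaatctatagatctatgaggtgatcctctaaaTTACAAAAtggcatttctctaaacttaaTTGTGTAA

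Hdac9 intron, higher in dKO (chr12:34783705-34783844, + strand): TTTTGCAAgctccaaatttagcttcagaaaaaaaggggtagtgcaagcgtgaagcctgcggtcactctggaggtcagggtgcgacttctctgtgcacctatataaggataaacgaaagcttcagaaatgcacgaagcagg

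Hdac9 intron, lower in dKO (chr12:34559093-34559232, + strand): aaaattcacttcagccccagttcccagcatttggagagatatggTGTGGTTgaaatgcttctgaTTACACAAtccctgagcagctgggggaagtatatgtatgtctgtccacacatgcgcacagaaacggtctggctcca

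The remodellers and ARID genes were the only group in which every gene had a region, with 15 higher and 4 lower regions at 6 genes. Smarca2 and Smarca4 encode the alternative ATPases of the BAF complex. At Smarca2 a region 13477 bp upstream was lower, chr19:26591321-26591573, from 4.59 to 2.43 (−2.16 ± 0.462), and an internal one was higher, chr19:26699111-26699361, from 3.07 to 4.85 (1.78 ± 0.380). Both Smarca4 regions were higher. The one 5871 bp upstream, chr9:21609848-21610298, held 7.26 in WT and 8.10 in dKO (0.84 ± 0.098). This region held C/EBP, AP-1 and RUNX strings together in its central 200 bp.

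Arid1a and Arid1b encode alternative DNA-binding subunits of the same complex, and both had regions in each direction. The Arid1a regions lay 14776 bp apart over coding exons. The one at chr4:133680228-133680586 was higher, from 4.30 to 5.58 (1.28 ± 0.259), and held an AP-1 string. The one at chr4:133695363-133695744 was lower, from 6.40 to 5.27 (−1.13 ± 0.188), and held a C/EBP string.

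Arid1a coding exon region, higher in dKO (chr4:133680337-133680476, + strand): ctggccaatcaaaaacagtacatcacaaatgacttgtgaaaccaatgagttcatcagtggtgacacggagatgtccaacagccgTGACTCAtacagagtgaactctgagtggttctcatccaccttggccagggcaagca

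Arid1b had the most regions of the 44 genes, 5 higher and 2 lower, all inside the gene. From the 5′ end, the first 4 were higher in dKO. They were chr17:5094681-5095066, from 5.44 to 6.59 (1.15 ± 0.177), and chr17:5132450-5132972, from 4.37 to 5.81 (1.44 ± 0.249). Then came chr17:5234838-5235375, from 4.86 to 6.90 (2.04 ± 0.200), and chr17:5238490-5239199, from 5.94 to 6.98 (1.04 ± 0.151). The next region stood 10024 bp further and had the largest decrease of all 48. This region, chr17:5249224-5249614, went from 5.71 to 2.17, a change of −3.54 ± 0.476 or 11.6-fold lower, larger than at 90.9% of the lower regions of the list. The region at chr17:5287221-5287608 was also lower, from 4.64 to 2.30 (−2.34 ± 0.478). The last, over a coding exon at chr17:5327498-5328203, was the most accessible of the 48 by the mean of both groups, though not in WT. It had the smallest change, from 8.05 to 8.63 (0.58 ± 0.077), which turned to −0.40 after centring. The 2 lower regions held none of the motifs in their centres, while C/EBP strings stood in the first 2 higher ones.

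Arid5b, a DNA-binding partner of a histone demethylase, had 2 higher regions with low WT levels. They were chr10:68263882-68264303, an intronic region at 2.98 in WT and 5.90 in dKO (2.92 ± 0.367), and chr10:68091828-68092176, at 3.35 and 5.45 (2.10 ± 0.337). The latter lies 344 bp beyond the 3′ end of the gene. The fold differences were 7.57 and 4.29.

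Chd7, an ATPase remodeller active at enhancers, had 4 regions in its body, all higher in dKO and all of high level. The first, chr4:8691482-8692237, 117 bp from the start of Chd7-202, held 6.16 in WT and 7.14 in dKO (0.98 ± 0.141). It was the richest of the 48 in CpG dinucleotides, with 13.5 per 100 bp and a GC content of 76.5%. Next were chr4:8811007-8811435, from 6.24 to 7.45 (1.21 ± 0.133), and chr4:8842720-8843205, from 6.73 to 7.50 (0.77 ± 0.118). The last, chr4:8853963-8854432, 799 bp from the start of the incomplete model Chd7-208, went from 6.77 to 7.48 (0.71 ± 0.118). The dKO levels of the 4 lay within 0.36 of each other on the log2 scale. After centring the first stood at zero, the second at 0.23 and the others at −0.21 and −0.27, since centring takes the same amount from every region.

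Across the 48 regions, C/EBP strings were present in the centre of 10, or 20.8%, against 28.4% of all listed regions. By direction they stood in 3 of the 11 lower regions, or 27.3%, where the whole list had 40.7%, and in 7 of the 37 higher ones, or 18.9%, where the list had 20.2%. AP-1 strings stood in 9 of the 37 higher regions, or 24.3%, and in none of the 11 lower ones, against 26.6% and 4.65% over the list. PU.1 strings stood in 3 regions (6.25%) and RUNX strings in 6 (12.5%), against 9.17% and 11.9%. With 11 lower regions these shares are coarse, and they are given as descriptions. Base composition was close to that of the list, with a median GC content of 49.8% against 49.0%, and the median width was 438.5 bp against 400.

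**Figure D5:**
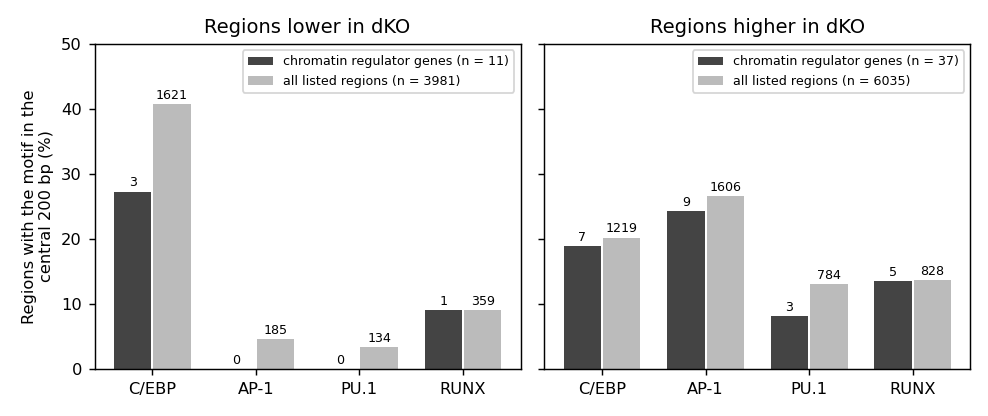
Bars give the percentage of regions with each motif in the central 200 bp, for regions lower (left) and higher (right) in dKO, at the regulators (dark) and over the whole list (light), with the number of regions above each bar. AP-1 strings stand in 9 of 37 higher and 0 of 11 lower regions at the regulators.

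At the edge of the 25 kb window, the farthest regions counted were those of Tet1, 22145 bp from the gene (change 1.59), and Kmt2b, 19198 bp away (−1.40). A region beyond the window, 26498 bp from Kdm2b, chr5:122843793-122844167, was higher in dKO, from 5.70 to 6.89 (1.19).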

How the data were processed

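ATAC-seq was analysed for 2 WT and 2 dKO libraries. The authors preprocessed reads with PiGx, aligned them to mm10 with Bowtie 2, called peaks with MACS2 and compared groups with DiffBind 2.14.0, listing regions at a corrected P-value of 0.05. Duplicate handling, Tn5 offset and peak merging are not given in the sources used here. Retained duplicates would raise strongly amplified regions. The deposited log2 values are means of normalised reads, which the authors took within WT, within dKO and over both groups together. The authors' own fold change, p-value and FDR columns were not used. The 2 deposited files are identical and hold 1 table, so dKO-LAP* was not analysed here.

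Regions were assigned to GENCODE M21 gene bodies extended by 25 kb, and a region in several windows went to the nearest start site. The change was dKO minus WT. Reads per library were set by taking the lowest listed value, −0.15, as 1 read, which is an assumption. On this scale 3 reads per library is a log2 value of 1.43, and a fold against a group under it is a lower bound. Sequences came from GRCm38. Assignment and motif search were tested on simulated data. Python 3.11.15, pandas 2.3.3, NumPy 2.4.6, SciPy 1.17.1, pysam 0.24.0 and matplotlib 3.10.9 were used.

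The genes, role groups and lists were chosen with earlier results of these data known. Values were printed for regions within 1 kb of a start site of their gene, for the largest change of each gene except Smarca4 and for all regions of the genes with most regions. The remaining regions were added after their values were seen, and the values of 1 counted region and 1 region outside the windows are not reported here. Windows, start site distances, level filters, centring, motif widths and chromosome 10 were varied. Leaving out Arid1b, leaving out the 3 adjacent Dnmt3a regions and taking 1 region per gene for the higher share were chosen after seeing the data.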

Additional observations from a re-analysis of the deposited data

How the results depend on the processing

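No paired analysis was possible because only group means were listed, and for the same reason no library could be left out. Of 55 alternative values of the main counts and shares, 47 stayed within the tolerance, which was 1.5-fold for counts and the 95% Wilson interval of the main value for shares. Some of these values could not move. All 7 promoter regions lay inside gene bodies and nearest to their own gene, so the window and nearest-gene settings could not alter that count. The higher share ranged from 54.2% to 82.2%. The lowest value, 54.2%, came from centring on the median of all listed regions, and the highest from leaving out the 3 adjacent Dnmt3a regions. It was 78.0% without Arid1b and 78.3% with 1 region per gene. Counting gene bodies alone left 27 regions at 12 genes, and requiring the nearest protein-coding start site left 28 regions. Start sites within 500 bp gave 4 promoter regions in place of 7, and within 2000 bp 10, and windows of 50 kb gave 66 regions. C/EBP strings stood in 35.4% of whole regions (42.9% of the list), and TTGCNNAA alone in 10.4% of centres (19.3%). RUNX strings stood in 4.35% with 1 region per gene.

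Centring turned 10 regions from higher to lower. They were those of Arid1b (−0.40), Bmi1 (−0.32), Dnmt1 (−0.11), Hdac5 (−0.12), Kdm5a (−0.18), Ncor1 (−0.16), Smarca4 (−0.14) and Tet1 (−0.22), and 2 of Chd7 (−0.21 and −0.27). The depth of each library is unknown, and counting errors leave out the spread between cultures or clones.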
